A study of Mus musculus with 5 samples.

Results

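Cadherins and protocadherins are the calcium-dependent adhesion molecules of the cell surface, and 50 of the 15093 genes listed for ribosome-bound RNA of central amygdala (CeA) *Drd2* neurons belong to them. The members are every row whose gene name begins with Cdh followed by a digit or with Pcdh, which gave 17 cadherins and 33 protocadherins. RNA came from adult Drd2-TRAP mice, in which Cre under *Drd2* regulatory sequence of a bacterial artificial chromosome switches on an EGFP-tagged ribosomal protein, so that tagged ribosomes can be pulled down (translating ribosome affinity purification, TRAP). Fear conditioned mice received tones paired with foot shock (replicates 2, 3 and 4, n = 3 libraries), and control mice carried the same alleles without that training (replicates 6 and 7, n = 2 libraries). The labels call the controls home cage animals and place collection after extinction, and the study's methods also write HC for this group, whereas its results text describes exposure to the tone or training environment and collection after conditioning, so the comparison is written here as fear conditioned against control. Each library pooled bilateral punches from 3 animals taken 2 h after the session, and the sex of these animals was not given in the sources used here.

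Classical cadherins bind their own kind across the cell contact and hold the cytoskeleton through catenins, with N-cadherin as the main synaptic member. Delta protocadherins are single genes on several chromosomes, and they regulate adhesion, axon growth and synapse number. The clustered protocadherins lie in the alpha, beta and gamma arrays of 1 chromosome. Each neuron switches on its own small choice of their promoters, which gives it a surface identity used in self-recognition of dendrites.

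The deposited values are read counts scaled to library size, close to CPM, and are called CPM below. The libraries held between 19605318 and 27937520 recovered reads on genes. A gene at 3 reads or fewer was not read as present, and 3 reads correspond to 0.1002 to 0.158 CPM, counting error only. *Drd2* itself had 326, 375 and 555 CPM after fear conditioning, against 128 and 262 CPM in the controls. The 10 measured markers of *Drd2* indirect pathway type neurons summed to 20520 to 22170 against 9009 and 13780 CPM. Of these markers, 7 were higher in every fear conditioned library than in both controls and 1 was lower in every one, and the others overlapped. The control libraries stood apart from each other over the whole table, with 976 and 2681 genes at 0 against 159 to 349 in the fear conditioned libraries, and a coefficient of variation between libraries of 1.23 against 0.238. Marker genes of other cell types also moved with the groups. Summed choroid plexus markers reached 113 to 186 CPM after fear conditioning, against 1954 and 2263 CPM in the controls, with *Ttr* at 0.522, 22.1 and 0.348 against 913 and 1320 CPM. Summed pallial glutamatergic markers reached 107 to 305 against 472 and 622 CPM, astrocyte markers 383 to 485 against 789 and 953 CPM, and oligodendrocyte markers 1284 to 2732 against 2815 and 5384 CPM. Markers of direct pathway type neurons, such as *Drd1a*, went the other way, with sums of 180 to 374 against 101 and 117 CPM. Microglial marker sums overlapped, at 77.1 to 140 against 132 and 162 CPM. The part of these markers in the members' differences was not tested. In pull-downs of this kind from pooled punches, sources such as fewer cells of a type or less RNA per cell cannot be told apart.

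Per kilobase of the deposited gene length, the levels over the 5 libraries were led by the gamma cluster row with 15.1 CPM per kb (12.7 to 18.3), the delta-1 gene *Pcdh9* with 15.0 (10.2 to 21.5) and *Cdh13* with 14.2 (11.9 to 17.2). *Cdh13* encodes T-cadherin, which is tethered to the membrane by a lipid anchor instead of a transmembrane segment. These 3 ranges overlap, so their order is not settled. Next came *Cdh22* with 11.7 CPM per kb (6.77 to 14.7), *Pcdh8* with 11.4 (3.06 to 25.7), *Cdh4* with 9.23 (3.65 to 19.2), *Pcdh10* with 8.94 (6.17 to 17.6) and *Cdh9* with 8.55 (2.29 to 15.1), again with overlapping ranges. *Cdh2*, N-cadherin, stood in place 15 of the 50 with 3.19 CPM per kb (2.39 to 4.83). The lowest members were *Cdh19*, *Pcdhb13* and *Pcdhb3*, at 0.205 to 0.214 CPM per kb.

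**Figure D1:**
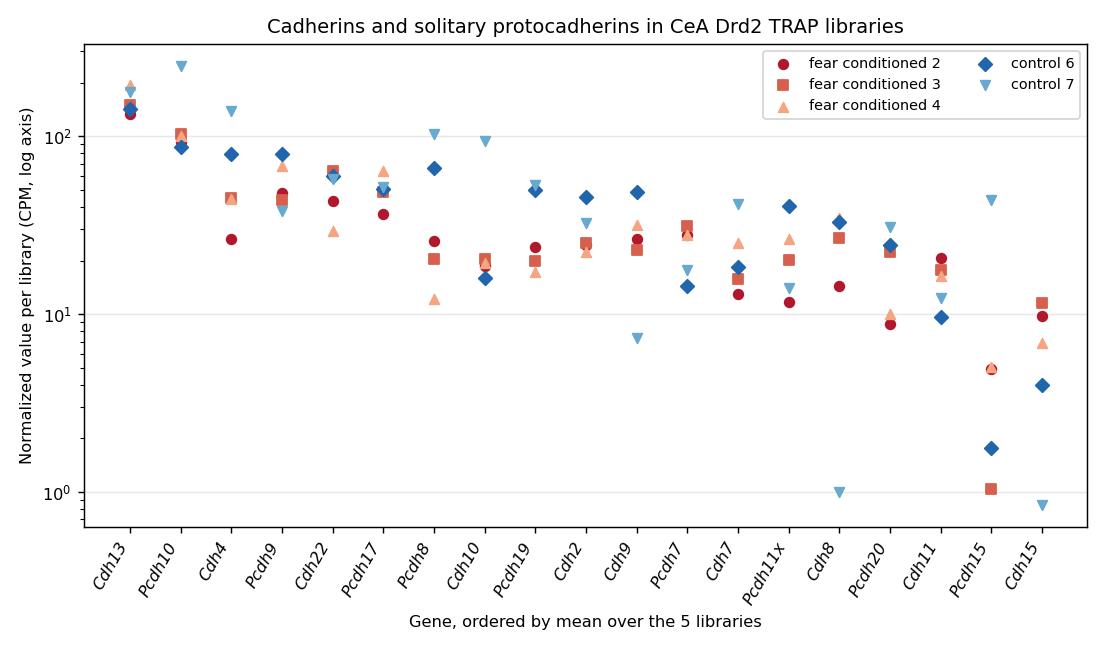
Normalized value (CPM, log axis) of the 19 named cadherins and solitary protocadherins in each of the 5 libraries, ordered by their mean. Red to orange points are the fear conditioned libraries and blue points the controls. *Pcdh8*, *Pcdh19* and *Cdh4* show both controls above all 3 fear conditioned libraries, whereas control replicate 7 of *Cdh8*, *Cdh9* and *Cdh10* lies far from control replicate 6.

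The question was whether members differed between fear conditioned and control animals. With limma on log2(CPM + 1), 45 members with a mean of at least 1 CPM were tested, and *Cdh3*, *Cdh19*, *Pcdhb3*, *Pcdhb8* and *Pcdhb13* fell below that level. None of the 45 passed an adjusted p of 0.05 with an absolute log2 fold change over 0.5, and neither did any other gene (0.0% of 13560). Among them, 5 had an unadjusted p under 0.05 and were higher (9.49% of all genes tested were) and 3 were lower (7.32% of all genes). These members were *Pcdhb19*, *Pcdhb21*, *Pcdhb11*, *Pcdhb15* and *Cdh15* on the higher side and *Pcdh8*, *Pcdh19* and *Cdh4* on the lower side. The 4 beta genes among them had 0 or 1 read in each control and passed the level filter only through the fear conditioned libraries, and where a value of at least 1 was required in every library 0 members were higher at this p. The groups did not overlap for 9 higher and 6 lower members, where 20.2% and 16.1% of all genes tested were placed so, which puts the members' shares near the background. The sign of the fold change was negative for 30 members and positive for 15, with a median log2 fold change of −0.27 against 0.083 over all genes tested. edgeR and limma voom on recovered reads also called 0 members, with an unadjusted p under 0.05 for 7 and 8 higher members and for 3 lower members in each. DESeq2 on the same reads called 7 of the 50, namely *Pcdhb19*, *Pcdhb21*, *Pcdhb11* and *Pcdhb15* as higher (3.68% of all genes were) and *Pcdh8*, *Pcdh19* and *Cdh4* as lower (3.79%). These are the members of smallest p in limma, and *Cdh15* was not called by DESeq2.

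**Figure D2:**
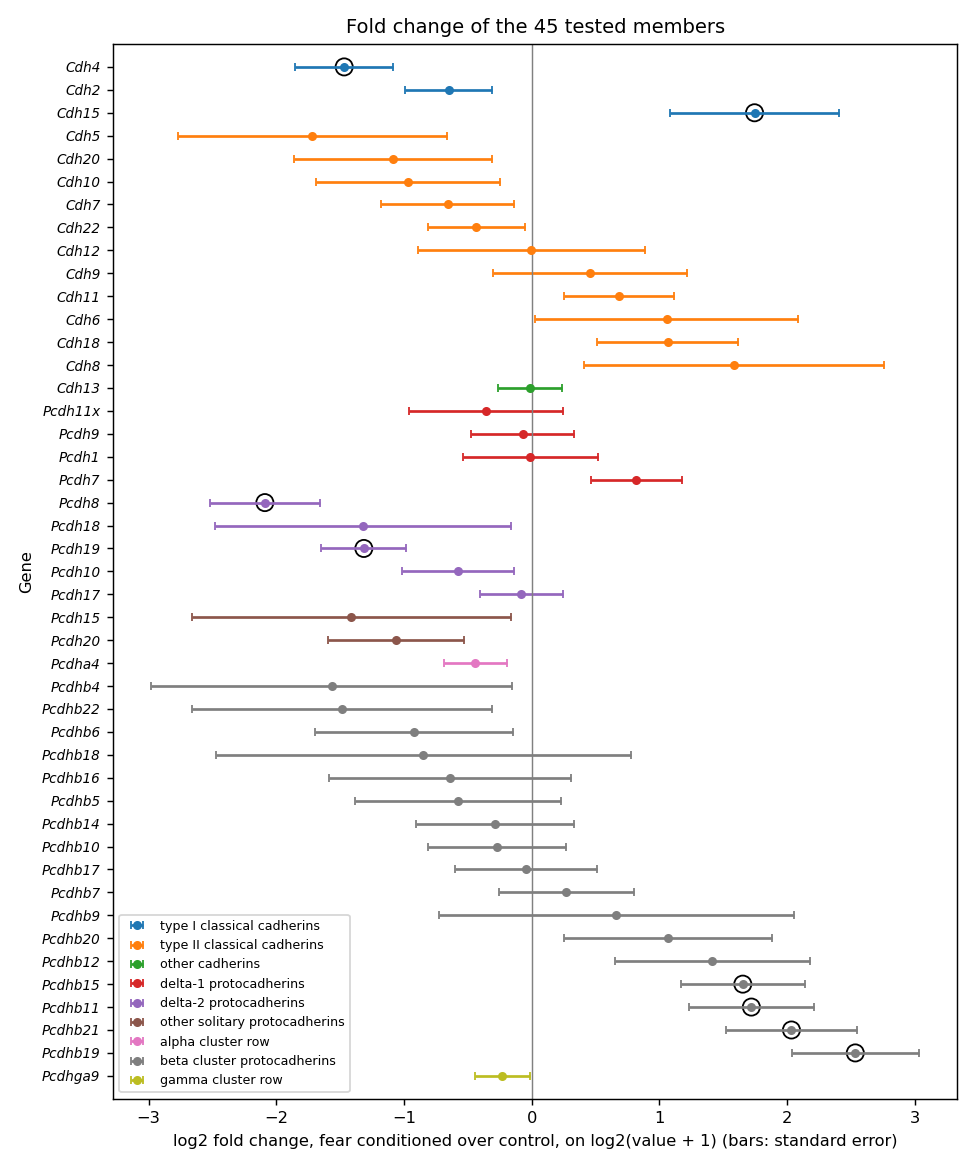
Log2 fold change of fear conditioned over control libraries on the log2(CPM + 1) scale for the 45 tested members, coloured by group, with bars for the standard error from limma. Black circles mark the 8 members with an unadjusted p under 0.05, and all 5 delta-2 protocadherins lie left of 0.

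Of the 5 delta-2 protocadherins, *Pcdh8* and *Pcdh19* were lower in every fear conditioned library, and the other 3 had overlapping groups. None was called by limma. *Pcdh8* and *Pcdh19* had an unadjusted p under 0.05 (2 of 5, against 7.32% of all genes on the lower side), and the 5 log2 fold changes were negative, with a median of −1.31. Their summed level was 181, 194 and 195 CPM after fear conditioning, against 255 and 483 CPM in the controls. The sum was thus lower in every fear conditioned library, by −0.89 in log2 (exact permutation test, two-sided, with p = 0.1, and 3 against 2 libraries allow no smaller p). Without control replicate 7 the difference was −0.43, and without control replicate 6 it was −1.35.

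*Pcdh8* (ENSMUSG00000036422) encodes arcadlin, a protocadherin induced by neuronal activity that draws N-cadherin away from the synaptic surface. It had 25.6, 20.5 and 12.2 CPM in fear conditioned replicates 2, 3 and 4, against 66.3 and 103 CPM in control replicates 6 and 7. Every fear conditioned library was below both controls. The log2 fold change was −2.09 ± 0.43 (SE, limma, unadjusted p = 0.00247, adjusted p = 0.197). It lay between −2.40 and −1.78 when any 1 library was left out, and DESeq2 gave −2.16 with an adjusted p of 0.000989. The pallial marker *Slc17a7*, the vesicular glutamate transporter of cortical-type neurons, had 152, 141 and 34.5 CPM after fear conditioning, against 227 and 197 CPM in the controls, in the same direction.

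*Pcdh19* (ENSMUSG00000051323), an X-linked gene whose mutation causes epilepsy, had 23.8, 20.0 and 17.2 CPM after fear conditioning, against 50.1 and 53.2 CPM in the controls. Here the 2 controls nearly coincided, unlike most members, and every fear conditioned library lay below both. The log2 fold change was −1.31 ± 0.33 (SE, limma, unadjusted p = 0.00697, adjusted p = 0.200), with −1.43 to −1.21 over the libraries left out.

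The remaining delta-2 genes moved less or rested on 1 control library. *Pcdh10*, which recruits the actin-regulating WAVE complex, had 92.7, 103 and 99.8 CPM after fear conditioning, against 87.0 and 248 CPM in the controls. The fear conditioned libraries fell between the 2 controls, and the log2 fold change of −0.58 ± 0.44 (limma, adjusted p = 0.526) turned to 0.17 without control replicate 7. *Pcdh17*, a gene of corticobasal synapses, had 36.7, 48.3 and 64.1 CPM against 50.8 and 51.8 CPM, with the controls inside the fear conditioned range. *Pcdh18* had 2.09, 2.37 and 1.19 CPM against 0.801 and 26.9 CPM, a difference carried by control replicate 7.

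The 250 bases upstream of the start site of the 2 delta-2 genes with an unadjusted p under 0.05 and of 2 that did not reach it are shown for comparison (RefSeq, GRCm38.p6, read along the gene's own strand). They lie at chr14:79771313-79771562 on the minus strand for *Pcdh8*, chrX:133688994-133689243 on the minus strand for *Pcdh19*, chr3:45378148-45378397 on the plus strand for *Pcdh10* and chr14:84443313-84443562 on the plus strand for *Pcdh17*. Capitals mark matches on either strand to the cyclic AMP response element TGACGTCA, its shorter form TGACG (contained in the full element), and the early growth response motif spelled GCGTGGGCG or GCGGGGGCG, all sequences read by activity-regulated factors.
Pcdh8: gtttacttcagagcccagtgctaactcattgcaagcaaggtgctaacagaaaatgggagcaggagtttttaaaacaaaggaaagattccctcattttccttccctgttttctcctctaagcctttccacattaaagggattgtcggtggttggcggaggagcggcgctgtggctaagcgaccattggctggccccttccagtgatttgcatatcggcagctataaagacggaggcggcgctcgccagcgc
Pcdh19: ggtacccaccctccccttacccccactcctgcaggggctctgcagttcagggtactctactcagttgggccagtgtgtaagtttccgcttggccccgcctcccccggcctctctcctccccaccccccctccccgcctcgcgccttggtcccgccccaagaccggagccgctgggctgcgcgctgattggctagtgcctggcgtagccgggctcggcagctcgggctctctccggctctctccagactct
Pcdh10: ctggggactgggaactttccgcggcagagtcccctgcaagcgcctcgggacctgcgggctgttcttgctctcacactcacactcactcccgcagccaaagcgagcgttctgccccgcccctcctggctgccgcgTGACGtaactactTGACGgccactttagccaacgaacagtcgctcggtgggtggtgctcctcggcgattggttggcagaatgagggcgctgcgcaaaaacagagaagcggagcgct
Pcdh17: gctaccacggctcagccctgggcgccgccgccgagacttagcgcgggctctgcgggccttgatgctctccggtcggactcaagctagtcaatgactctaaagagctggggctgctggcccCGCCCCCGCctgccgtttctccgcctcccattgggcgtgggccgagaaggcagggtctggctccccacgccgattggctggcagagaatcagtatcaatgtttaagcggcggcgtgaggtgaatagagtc
*Pcdh10* held the short element with its first base 116 and 103 bases before the start site, *Pcdh17* held an early growth response match 130 bases before it, and *Pcdh8* and *Pcdh19* held none of these letters in this window. *Pcdh18*, which also did not reach that p and whose window is not shown, likewise held none of them. Of all 32851 mouse promoter windows of this length, 1.5% held the full element, 17.8% the short one and 3.1% the early growth response motif. Among 22 windows of the 19 members read, 0 held the full element, 4 the short one (*Cdh8*, *Pcdh10* and both start sites of *Pcdh9*) and 1 the early growth response motif.

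The delta-1 protocadherins did not differ as a sum, with 92.5, 101 and 128 CPM after fear conditioning, against 139 and 76.3 CPM in the controls (log2 difference 0.045, exact permutation test, two-sided, p = 1.0). *Pcdh7* was the exception in direction, with 27.9, 31.3 and 27.9 CPM against 14.4 and 17.7 CPM. All fear conditioned libraries were above both controls, and the log2 fold change was 0.82 ± 0.36 (SE, limma, unadjusted p = 0.0604, adjusted p = 0.318). *Pcdh9* had 47.8, 44.0 and 68.0 CPM against 79.6 and 37.9 CPM, and *Pcdh11x* had 11.7, 20.2 and 26.5 CPM against 40.6 and 14.0 CPM. For both, the controls lay on either side of most fear conditioned values, and the sign of the fold change depended on which control was kept.

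2 solitary protocadherins fall outside the delta groups. *Pcdh20* had 8.82, 22.4 and 10.03 CPM after fear conditioning, against 24.5 and 30.8 CPM in the controls, lower in every fear conditioned library (log2 fold change −1.06 ± 0.53, SE, limma, adjusted p = 0.368). *Pcdh15*, a component of the tip link of hair cells, had 4.88, 1.041 and 5.06 CPM against 1.77 and 43.6 CPM, a high value in control replicate 7 alone. *Pdgfra*, the defining marker of oligodendrocyte precursors, had 13.6, 9.95 and 7.001 CPM after fear conditioning, against 39.8 and 22.5 CPM in the controls. Of the 7 measured markers of these precursors, 3 were highest in control replicate 7, as *Pcdh15* was (*Gpr17* at 57.0 CPM, *Sox10* and *Cspg4*), and 4 in another library, and their part in the *Pcdh15* value was not tested. Over the 11 solitary protocadherins together, 10 log2 fold changes were negative, with a median of −0.58, and the summed level was 287, 319 and 338 CPM against 421 and 634 CPM (exact permutation test, two-sided, p = 0.1).

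**Figure D3:**
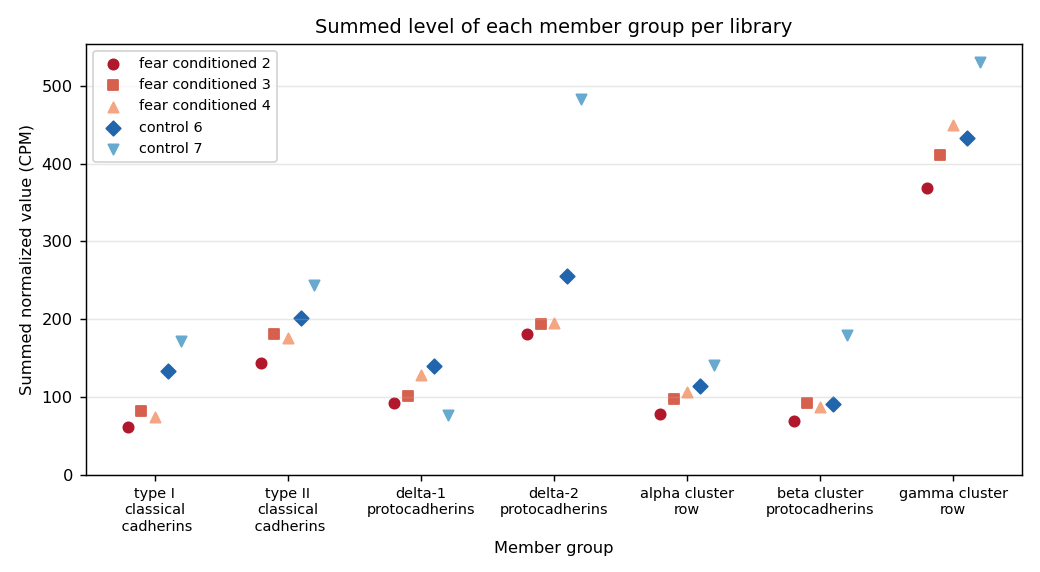
Summed CPM of the members of each group in each library, on an axis starting at 0, with fear conditioned libraries in red to orange and controls in blue. The type I and type II cadherins, the delta-2 protocadherins and the alpha row show both controls above the 3 fear conditioned libraries. Control replicate 7 is the highest library in every group drawn but the delta-1 protocadherins.

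Among type I classical cadherins, *Cdh4* and *Cdh2* were lower and *Cdh15* was higher after fear conditioning. *Cdh4* (ENSMUSG00000000305), or R-cadherin, had 26.5, 44.8 and 44.4 CPM after fear conditioning, against 79.9 and 139 CPM in the controls. The groups did not overlap, and the log2 fold change was −1.47 ± 0.38 (SE, limma, unadjusted p = 0.00813, adjusted p = 0.206), or −1.07 without control replicate 7. *Cdh2*, N-cadherin, had 24.6, 25.2 and 22.4 CPM against 45.3 and 32.3 CPM. Its fear conditioned libraries lay within 3 CPM of each other and below both controls, with a log2 fold change of −0.65 ± 0.34 (SE, limma, unadjusted p = 0.102, adjusted p = 0.383). *Cdh15* (ENSMUSG00000031962), M-cadherin, best known from skeletal muscle, had 9.72, 11.5 and 6.90 CPM against 4.01 and 0.844 CPM. Each fear conditioned library was above both controls, with a log2 fold change of 1.75 ± 0.66 (SE, limma, unadjusted p = 0.037, adjusted p = 0.272), which was 2.47 without control replicate 6 and 1.02 without control replicate 7. *Cdh3*, P-cadherin, had 138 reads in control replicate 6 and 0 in every other library, so its higher value in the controls rested on 1 library. The group's summed level was 60.8, 81.5 and 73.7 CPM against 134 and 172 CPM, a log2 difference of −1.09 (exact permutation test, two-sided, p = 0.1).

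Type II classical cadherins, which sort neurons into nuclei and layers, showed no common direction, with 5 positive and 6 negative log2 fold changes among 11 tested and a median of −0.0026. None had an unadjusted p under 0.05. Their summed level was nonetheless lower in every fear conditioned library, with 144, 181 and 175 CPM against 201 and 243 CPM in the controls. The log2 difference was −0.42 (exact permutation test, two-sided, p = 0.1). The sum over all 50 members was placed the same way, with 1141, 1332 and 1424 CPM against 1536 and 2078 CPM. *Cdh11*, a cadherin of mesenchymal and neural cells, had 20.7, 17.7 and 16.4 CPM after fear conditioning, against 9.68 and 12.3 CPM in the controls. It was higher in all fear conditioned libraries by 0.68 ± 0.43 in log2 (SE, limma, unadjusted p = 0.161, adjusted p = 0.453). *Cdh22* had 43.2, 63.6 and 29.4 CPM against 60.01 and 57.7 CPM, with overlapping groups.

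In 4 further type II members the 2 controls disagreed. *Cdh8* had 14.4, 26.6 and 34.7 CPM after fear conditioning, against 33.0 and 1.00 CPM in the controls, and *Cdh9* had 26.4, 23.1 and 31.9 CPM against 48.6 and 7.33 CPM. For both, control replicate 6 lay at or above most fear conditioned libraries and control replicate 7 far below them. *Cdh10* had 18.6, 20.3 and 19.4 CPM against 16.0 and 93.7 CPM, and *Cdh7* had 13.0, 15.8 and 25.0 CPM against 18.5 and 41.8 CPM, both with control replicate 7 on top. The log2 fold change of *Cdh8* was 1.59 ± 1.18 (SE, limma, adjusted p = 0.517) and fell to −0.46 without control replicate 7. *Cdh13*, the T-cadherin, had 134, 151 and 194 CPM against 142 and 178 CPM, with the controls inside the fear conditioned range (log2 fold change −0.01 ± 0.25, SE, limma, adjusted p = 0.984).

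*Cdh5*, VE-cadherin of endothelial junctions, had 0.522, 0.0416 and 0.497 CPM after fear conditioning, against 0.267 and 14.2 CPM in the controls. Its value in control replicate 7 rested on 269 reads, where the other libraries had at most 11. Of the 10 endothelial markers measured, 2 were likewise highest in control replicate 7, *Ly6c1* at 150.5 CPM and the receptor gene *Kdr* at 31.3 CPM, 4 were highest in control replicate 6 and 4 in fear conditioned replicate 2. The tight junction gene *Cldn5* had 0.0527 CPM in control replicate 7 and 1.79 to 8.91 CPM after fear conditioning, and *Tek* had 0 in both controls. Summed endothelial markers reached 22.0 to 52.8 CPM after fear conditioning, against 71.7 and 211 CPM in the controls, and their part in the *Cdh5* value was not tested.

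The beta cluster was detected in every fear conditioned library and in patches in the controls. All 20 listed beta genes had more than 3 reads in each fear conditioned library, whereas 9 had 3 reads or fewer in control replicate 6 and 8 in control replicate 7. Of the 20 genes, 11 (55.0%) fell to this level in at least 1 control and 6 (30%) in both. Among 5394 genes with a fear conditioned mean in the same range (0.621 to 11.5 CPM), the corresponding shares were 49.8% in at least 1 control and 11.7% in both, with 16.9% in control replicate 6 and 44.6% in control replicate 7. The beta genes' share was thus near that of genes of like level for at least 1 control, and larger for both controls and for control replicate 6 (45%), and these differences were not tested.

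*Pcdhb19* (ENSMUSG00000043313) had 103, 115 and 95 reads after fear conditioning, with 0 in both controls, at least 37.1-fold higher against 3 reads. *Pcdhb21* (ENSMUSG00000044022) had 55, 104 and 52 reads against 0 and 0, at least 24.6-fold higher. The other genes of this kind were *Pcdhb11* (ENSMUSG00000051486), with 63, 45 and 46 reads against 1 and 0, and *Pcdhb15* (ENSMUSG00000047033), with 58, 52 and 37 reads against 0 and 1, at least 18.4-fold and 17.4-fold higher. For all 4, every fear conditioned library had at least 37 reads and no control had more than 1. On the log2(CPM + 1) scale, which understates changes of low genes, their fold changes were 2.54, 2.04, 1.72 and 1.65, with limma's adjusted p between 0.197 and 0.217. *Pcdhb3* and *Pcdhb8*, below the level tested and named after their values were seen, also had 0 reads in both controls, with 17, 48 and 25 and with 13, 16 and 33 reads after fear conditioning.

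Other beta genes went the opposite way in 1 control. *Pcdhb18* had 64, 75 and 81 reads after fear conditioning, 0 in control replicate 6 and 1155 in control replicate 7. *Pcdhb9* had 186, 318 and 250 reads against 1297 in control replicate 6 and 7 in control replicate 7, and *Pcdhb4*, also named after its values were seen, had 32, 14 and 18 reads against 0 and 619. These genes differed between the controls by more than 100-fold and between the fear conditioned libraries by less than 3-fold. *Pcdhb17* had 161, 223 and 254 reads against 423 and 132, with no gap between groups. The summed level of the cluster was 68.2, 92.6 and 86.8 CPM against 90.7 and 180 CPM, a log2 difference of −0.64 (exact permutation test, two-sided, p = 0.2) that came to −0.15 without control replicate 7 and −1.13 without control replicate 6. Beta genes are single-exon genes of closely similar sequence, so reads may be split among them, and how the authors assigned shared reads is not given in the sources used here.

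**Figure D4:**
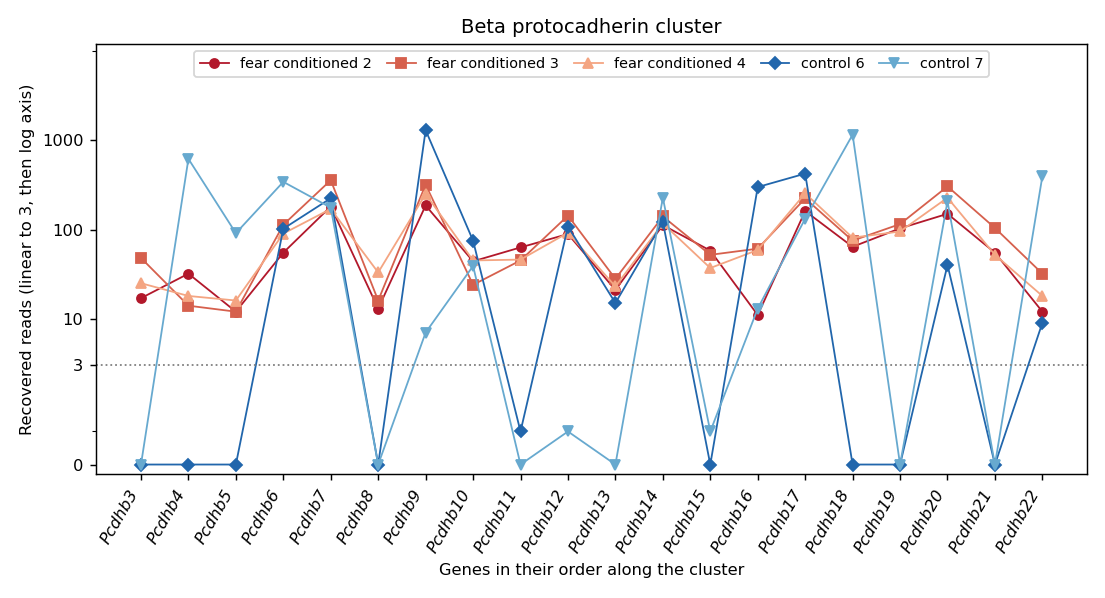
Recovered reads of the 20 listed beta protocadherins in their order along the cluster, on an axis that is linear to 3 reads and logarithmic above, for the 3 fear conditioned libraries (red to orange) and 2 controls (blue). The dotted line marks 3 reads. The fear conditioned lines run close together, while each control drops to 0 or 1 read at some genes and rises far above every other library at *Pcdhb9* or *Pcdhb18*.

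The alpha and gamma clusters were each listed as 1 row, although the reference names 13 alpha and 22 gamma genes. Both rows are named for 1 isoform, *Pcdha4* and *Pcdhga9*, but their identifiers belong to other names in the reference (*Pcdha11* and *Pcdhgc4*) and their deposited lengths of 24675 and 28969 bases are the longest of all members, so they may pool several isoforms, and no isoform is resolved here. The alpha row had 78.3, 96.9 and 106.5 CPM after fear conditioning, against 114 and 140.5 CPM in the controls, and the gamma row had 369, 411 and 450 CPM against 433 and 530 CPM. The alpha row was lower in every fear conditioned library (log2 fold change −0.44 ± 0.25, SE, limma, adjusted p = 0.414), and the gamma groups overlapped (−0.23 ± 0.22, adjusted p = 0.610). Neither row had fewer than 1651 reads in any library.

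The spread between the 2 controls decided many signs. The controls differed by more than 4-fold in 21 of the 50 members (42.0%, against 33.1% of all genes tested), whereas the fear conditioned libraries did so in 5 (10%, against 3.30%). Control replicate 7 was the higher control in 26 members and control replicate 6 in 17, and the other 7 had 3 reads or fewer in both. Of 41 members tested against each control alone, 10 were higher against both, 12 lower against both and 19 had opposite signs. When control replicate 6 was left out, limma called 29 of 46 members (63.0%, against 60.5% of all genes), and without control replicate 7 it called 14 of 43 (32.6%, against 27.5%). In these fits the lone control is assumed to vary like the fear conditioned libraries. Of 42 members tested against each control, 8 (19.0%, against 10.7% of 12954 genes) were called in the same direction against either, namely *Pcdh8*, *Pcdh19*, *Cdh4*, *Pcdh7*, *Pcdhb19*, *Pcdhb21*, *Pcdhb11* and *Pcdhb15*. The beta genes among the 8 had 0 or 1 read in each control and passed the level filter only through the fear conditioned libraries. Their agreement between the controls was therefore set in advance. The comparisons against each control share the fear conditioned libraries, and no test was made of the share of 19.0%.

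**Figure D5:**
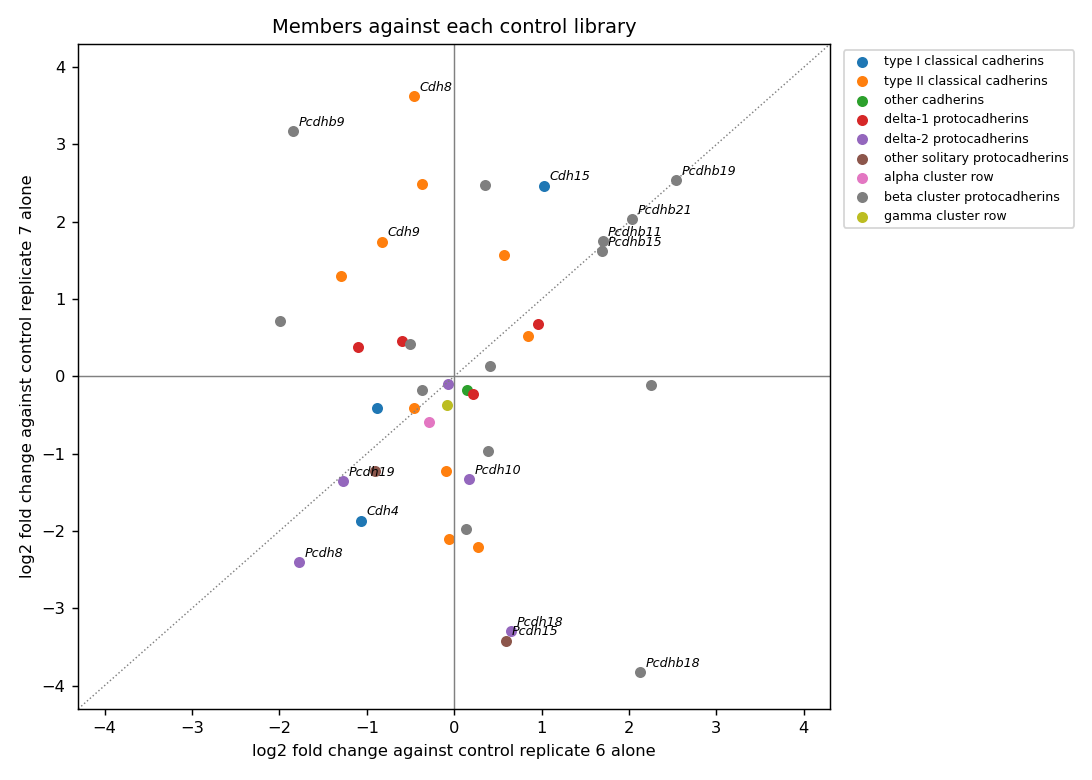
Log2 fold change of 41 members against control replicate 6 alone (x axis) and against control replicate 7 alone (y axis), on the log2(CPM + 1) scale, coloured by group, with a dotted line of equality. 10 members are positive on both axes, 12 negative on both and 19 lie in the quadrants of opposite sign, with *Cdh8*, *Pcdhb9* and *Pcdhb18* farthest from the line.

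Genes that work with cadherins were compared in the same limma fit. Catenins and junction adaptors, which link cadherins to actin, had 0 of 14 genes at an unadjusted p under 0.05 in either direction and a median log2 fold change of −0.31. Atypical and giant cadherins had 4 of 10 lower and 0 higher, with a median of −0.74. Among them the 3 of smallest p were *Fat1*, *Clstn2* and *Celsr2*, a giant cadherin, a calsyntenin and a planar polarity receptor. *Fat1* had 12.6, 11.7 and 8.24 CPM after fear conditioning, against 30.5 and 31.5 CPM in the controls, with a log2 fold change of −1.45. *Clstn2* and *Celsr2*, with log2 fold changes of −1.32 and −1.39, were likewise lower in every fear conditioned library.

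Kinases and WAVE complex partners of protocadherins had 0 of 12 genes at that level, with a median of 0.022, and desmosomal cadherins 0 of 3, with a median of −1.51. Cadherin proteases had 1 of 8 higher, *Adam17* at 6.12, 5.37 and 5.71 CPM against 1.80 and 0.105 CPM, and 1 lower, the gamma-secretase subunit gene *Aph1b* at 13.5, 16.5 and 21.1 CPM against 29.1 and 51.0 CPM. Regulators of clustered protocadherin promoters, a list of CTCF, cohesin and methylation genes, had 1 of 12 lower and 0 higher, with a median of −0.46. The gene was *Dnmt3a*, a DNA methyltransferase, at 38.1, 43.4 and 50.2 CPM against 70.0 and 145.5 CPM. None of these genes passed the adjusted threshold (adjusted p between 0.217 and 0.264 for those with values here), and the counts are read against 9.49% higher and 7.32% lower over all genes.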

How the data were processed

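Ribosome-bound RNA from 3 fear conditioned and 2 control pools was sequenced by the authors from SMARTer and Nextera XT libraries as paired-end reads. The methods name Tuxedo DESeq, and the submitters' processing notes list DESeq and the build mm8, while the aligner and strand setting are not given in the sources used here. The authors deposited a normalized signal per gene and library, that scales read counts to library size (CPM), with a gene length. All values (100%) were whole multiples of the value of 1 read, within 0.01, and these multiples served as recovered reads, 19605318 to 27937520 per library. P-values measure the spread between these pools.

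Groups were compared over all 13560 genes with a mean of at least 1, with limma 3.58.1 (trend, two-sided, Benjamini-Hochberg) on log2(value + 1). The call rule was an adjusted p below 0.05 together with a log2 fold change beyond 0.5 in either direction. Sums were compared with exact permutation tests over 10 splits. A fold against a group at 3 reads or fewer in every library is a lower bound, computed from the group mean of the values of 3 reads. The alternatives were a pseudocount of 0.1, 2 other filters, quantile normalization, array weights, edgeR 4.0.16 (quasi-likelihood), DESeq2 1.42.0, limma voom and each library left out. The fits were also run on simulated data, and that outcome is not reported or relied on here. R 4.3.3 and Python 3.11.15 were used.

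The members and lists were chosen with earlier results of these data known. Named members were cadherins and solitary protocadherins with a mean of at least 10, the 3 highest of each cluster, those with an unadjusted p under 0.05, and those at 3 reads or fewer in one group with at least 30 reads in every library of the other. From the pathway lists, up to 3 genes of smallest p under 0.05 were named, and *Drd2*, *Ttr*, *Slc17a7*, *Cldn5* and *Pdgfra* as defining markers. *Tek*, *Kdr*, *Ly6c1*, *Gpr17*, *Sox10*, *Cspg4*, *Cdh3*, *Cdh5*, *Pcdh18*, *Pcdhb3*, *Pcdhb4* and *Pcdhb8* fall outside this rule and were chosen after their values were seen. The identifiers of all 50 members matched the reference table, 48 of them under the same symbol.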

Additional observations from a re-analysis of the deposited data

How the results depend on the processing

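No paired analysis was possible because the groups share no replicate numbers. The direction of 16 of the 28 named members held under every alternative in which they were fitted, and 12 reversed under at least 1. Among the 16 were *Pcdh8*, *Pcdh19*, *Cdh4*, *Cdh15*, *Pcdhb19*, *Pcdhb21*, *Pcdhb11* and *Pcdhb15*. The filter of at least 1 in every library fitted 21 of the 28, without *Cdh15* and these beta genes. The beta genes listed had 0 or 1 read in each control, so leaving out a library could not turn their direction. The median log2 fold change of all genes, 0.083, was 0.16 with a pseudocount of 0.1, −0.04 with edgeR, −0.11 with DESeq2 and 0.25 with limma voom.

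Members with an unadjusted p under 0.05 numbered 5 higher and 3 lower. There were 0 higher where every library needed a value of at least 1, a setting that removes genes at 0 in the controls and left 2 members apart on the higher side, 1 higher and 1 lower with array weights, and 8 higher with limma voom. DESeq2 gave 9 higher and 9 lower. It called 1128 genes (7.47%) and 7 members (14.0%), and the cause was not tested. Leaving out 1 library gave 0 to 8025 genes and 0 to 29 members called, 2 to 14 members higher and 3 to 18 lower at an unadjusted p under 0.05, and 9 to 18 higher and 6 to 21 lower members without overlap. All these counts were highest without control replicate 6 or 7, where 1 control was left, and so was the number of all genes called. The delta-1 sum ranged from −0.39 to 0.48 and turned negative without control replicate 7 and, at −0.09, without fear conditioned replicate 4.

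With 1 library left out, log2 fold changes crossed 0 for *Cdh10* (−2.21 to 0.27), *Cdh9* (−0.83 to 1.74), *Cdh13* (−0.17 to 0.15), *Pcdh11x* (−1.10 to 0.38), *Pcdh17* (−0.28 to 0.11), *Cdh8* (−0.46 to 3.63), *Pcdhb17* (−0.51 to 0.42), *Pcdhb18* (−3.82 to 2.13), *Pcdh10* (−1.33 to 0.17), *Pcdhb9* (−1.84 to 3.17), *Pcdh15* (−3.42 to 0.59) and *Pcdh9* (−0.60 to 0.46). Array weights gave 0.12 for *Cdh13*, 0.096 for *Pcdh17*, 0.11 for *Pcdhb17* and 0.086 for *Pcdh9*. Voom gave 0.0013 for *Cdh13* and 2.05 for *Pcdhb18*, a pseudocount of 0.1 gave 0.49 for *Pcdhb18*, and quantile normalization gave 0.011 for *Pcdh17*. *Cdh9* came to −0.0068 with edgeR and −0.041 with DESeq2, and *Pcdhb9* to −0.88 and −0.91. The cause of these reversals was not tested.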

Other observations

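Some members of lower level lie outside the rule for named genes and are given as values, chosen after their values were seen. *Cdh6* had 1.61, 7.29 and 7.20 CPM after fear conditioning, against 6.28 and 0 CPM in control replicates 6 and 7. *Cdh12* had 0.522, 1.75 and 2.53 CPM against 5.04 and 0 CPM. Both type II cadherins thus had 0 reads in control replicate 7, but 188 and 151 reads in control replicate 6. *Cdh20* had 2.56, 1.96 and 4.22 CPM against 2.97 and 15.4 CPM. *Cdh18* had 1.61, 2.12 and 2.19 CPM against 1.00 and 0 CPM, with every fear conditioned library above both controls. *Cdh19*, a cadherin known from glial lineages, had 13, 23 and 31 reads after fear conditioning, with 0 in both controls, at least 8.03-fold higher against 3 reads. *Pcdh1* had 5.07, 5.75 and 5.91 CPM against 4.68 and 6.70 CPM, and its controls lay on either side of all fear conditioned libraries.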
